A study of Mus musculus with 2 samples.

Results

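Cytotoxic T cells and natural killer (NK) cells of the mouse aorta were taken as the barcodes with a UMI of Nkg7 and of at least 1 more of Ccl5, Ncr1, Klrb1c and Gzmb, so at least 2 of these 5 markers. A UMI (unique molecular identifier) is 1 counted RNA molecule. Each barcode also needed a UMI of Ptprc, the pan-leukocyte protein CD45, and 0 UMIs of Lef1, a transcription factor of naive T cells, and of Rag1, Cd79a, C1qa, Csf1r and S100a8, which mark thymocytes, B cells, macrophages and neutrophils. Among 19897 barcodes that had 500 genes or more and no more than 10% of UMIs from mitochondria, 80 met the rule, 40 in each of the 2 libraries. Cytotoxic lymphocytes store perforin and granzymes in granules and release them onto a target cell, where perforin lets the granzymes enter. CD8 T cells choose targets through the T cell receptor and its CD3 chains, whereas NK cells lack that receptor and weigh signals of activating and inhibitory receptors, many of which read MHC class I molecules on the target. In an artery wall such cells are sparse, and their cytokine interferon gamma acts on the cells around them.

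The study compared endothelial overexpression of Cept1 with its absence. The enzyme, choline/ethanolamine phosphotransferase, completes the making of the membrane lipids phosphatidylcholine and phosphatidylethanolamine. Both groups were male C57BL6 littermates of the genotype Cept1fl/fl, and the Cept1 group carried in addition VE-cadherin-Cre-ERT2 (Cre+), which the control group lacked (Cre-). VE-cadherin is an adhesion protein of endothelial cells, so the lymphocytes described here are not the cells in which the recombinase is meant to act. Under a protocol text given for both groups, tamoxifen was given to mice of at least 8 weeks in 5 daily injections of 1 mg, with 5 days of recovery, while the age label reads 6 to 8 weeks. Aortas from arch to pelvic bifurcation (n = 3 per condition) were digested with enzymes, strained and freed of red cells. The labels do not say whether the 3 aortas were pooled or how the sort was gated.

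Each group was 1 library, so no difference below has a replicate check and none was tested. Total depth was 95735360 UMIs in 17728 barcodes with Cept1 overexpression and 88220524 UMIs in 14349 control barcodes, of which 11168 and 8729 passed the cell filter. In endothelial-like barcodes (Cdh5 and Pecam1 present, Ptprc absent) Cept1 was at 108 and 72.4 CPM, the UMIs of the summed cells scaled to a common total. Its log2 ratio, the Cept1 value over the control value as throughout, was 0.58, with a 95% interval of 0.44 to 0.71, and all kept barcodes outside the cytotoxic cells were at 0.40. Transcripts of Gt(ROSA)26Sor, a locus often used for transgenes, were lower there, at 3.05 and 24.6 CPM. In the cytotoxic cells Cept1 had 25 UMIs in 17 cells of the Cept1 library and 15 UMIs in 10 cells of the control library, a log2 ratio of 0.50 whose interval of -0.48 to 1.53 spans 0. Gt(ROSA)26Sor had 0 and 10 UMIs in them.

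The cytotoxic cells were of like depth in both libraries. The 40 cells of the Cept1 library held 332055 UMIs with a median of 6893 per cell (2181 to 42514), and the 40 of the control library 281364 with a median of 6422.5 (2066 to 21086). Median genes per cell were 2603.5 and 2380.5, and median mitochondrial shares 3.68% and 3.66%. No barcode sequence of these cells occurred in the other library, although 31 kept barcodes did.

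The marker genes that chose the cells are given as a description. Ccl5, a T and NK cell chemokine, had UMIs in 39 of 40 and 40 of 40 cells, Gzmb (granzyme B) in 27 and 19, Klrb1c (NK1.1) in 25 and 16, and Ncr1 (the NK receptor NKp46) in 19 and 12. All 5 markers were present in 12 cells of the Cept1 library and 5 of the control library, and only 2 markers in 8 and 13. The cells with 2 markers, just inside the rule, had 0 and 20.7 CPM of Gzma (granzyme A), against 4405 and 3642 CPM in those with 3 or more. Just outside it, 3 and 9 barcodes had Nkg7 as the single marker, at 282 and 259 CPM of Nkg7. A larger number, 63 and 99 barcodes, missed the rule by Lef1 alone, 14 and 17 of them by 1 Lef1 UMI. These held 2238 and 1227 CPM of Gzma and 767 and 724 CPM of Nkg7, and 103 and 334 CPM of the naive T cell receptor Ccr7, which was at 0 and 32.0 CPM in the cytotoxic cells. The rule thus leaves out a group of Lef1-bearing cells with granzyme A that is larger than the group it keeps.

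The label was checked against other lineages, and 20 of the 80 cells carried many UMIs of one. These are the 12 cells of the Cept1 library and 8 of the control library with at least 20 UMIs of 9 genes of other lineages (Col1a1, Dcn, Myh11, Cdh5, Lyz2, Cd79b, S100a9, Igkc and Hbb-bs). Of the cytotoxic cells' UMIs they held 42.6% with Cept1 overexpression and 15.4% in the control. Scrublet, a doublet score, was at or above 0.25 in 6 cells of the Cept1 library, 4 of them among these 12, and in 0 of the control library. The median cell of each library had 3 such UMIs. Values below are therefore given for all 80 cells and for the remaining 60 (28 and 32 cells, 190668 and 237960 UMIs). Whether other-lineage UMIs came from a second cell or from free RNA was not tested.

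**Figure D1:**
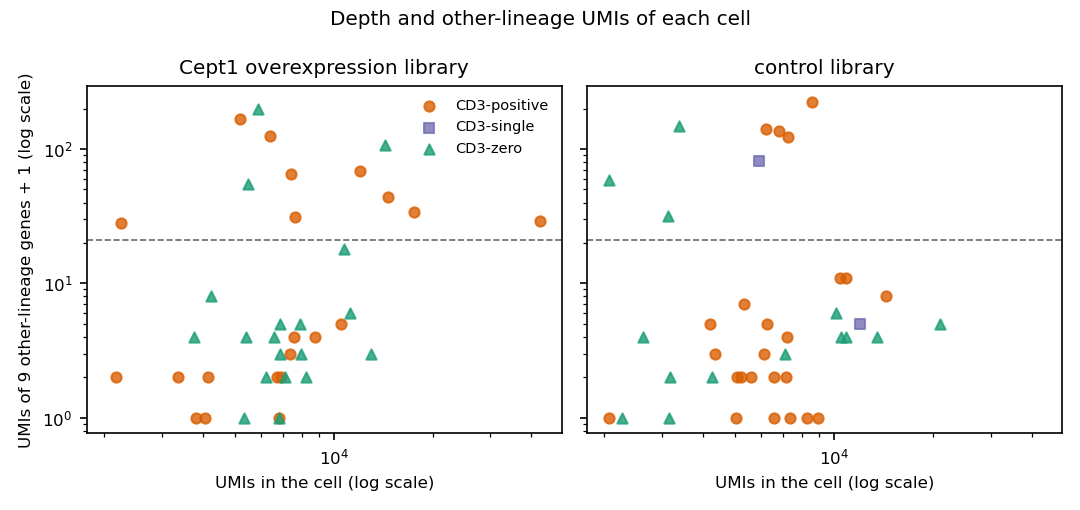
UMIs in each cell (x, log scale) against its UMIs of 9 other-lineage genes plus 1 (y, log scale), with a panel per library and symbols by CD3 class (CD3-positive, 2 or more UMIs of Cd3d, Cd3e and Cd3g; CD3-single, 1 UMI; CD3-zero, 0 UMIs). Cells on or above the dashed line have at least 20 other-lineage UMIs: 12 in the Cept1 library, including the deepest cell with 42514 UMIs, and 8 in the control library.

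Single cells stood apart as well. The deepest cell of the Cept1 library, 12.8% of that library's cytotoxic UMIs, was CD8 T-like by its gate but held 145 UMIs of the endothelial gene Pecam1, against 31 in the rest of that library's cytotoxic cells, and 319 of 451 UMIs of the elastin gene Eln. The eighth deepest, NK-like, held 348 of 425 UMIs of Fabp4 and all 24 of Pparg, genes of lipid-handling capillary endothelium and adipocytes, and it stays among the 60 cells because its Fabp4 is not one of the 9 genes. In the control library the deepest cell, NK-like and 7.49% of UMIs, held 40 of 48 UMIs of Mki67 and 41 of 56 of Top2a, both proliferation genes. The control cells ranked 2, 6 and 8 by depth also stay among the 60 cells. They held 3, 8 and 9 UMIs of the endothelial gene Cdh5, all 20 of that library's cytotoxic cells. They had 4, 2 and 2 UMIs of Nkg7, 7, 4 and 3 of Ccl5, and 0 of Gzma, Prf1 and Klrd1. Of whole marker lists, the fibroblast list (8 genes) summed to 8258 and 5662 CPM, with a median cell of 3 and 3 UMIs and highest cells of 561 and 436. The macrophage list (10 genes) was at 1394 and 1404 CPM, and the endothelial list (5 genes) at 1939 and 636. Smooth muscle genes (5) were at 1732 and 1159 CPM, erythroid genes (5) at 906 and 1951, dendritic genes (8) at 467 and 547, B and plasma cell genes (8) at 235 and 124, and platelet genes (4) at 126 and 49.8. The lists of related lymphocytes were at 310 and 402 CPM for regulatory T cells (4 genes), 268 and 132 for type 2 innate lymphoid cells (5 genes) and 163 and 224 for thymocytes (5 genes), and mast cell genes (5) were at 36.1 and 46.2. Much of the 3 lymphocyte sums lay in single genes. Ikzf2 held 96 of 103 and 75 of 113 regulatory T cell UMIs. Hes1 held 58 of 89 and 15 of 37 type 2 UMIs, and Themis 50 of 54 and 61 of 63 thymocyte UMIs. The sums alone are therefore no measure of those cell types. Neutrophil genes summed to 2 and 3 UMIs and type 17 lymphocyte genes to 0 and 1. The rule had already asked for 0 UMIs of S100a8, C1qa, Csf1r, Cd79a and Rag1. The neutrophil, macrophage, B cell and thymocyte lists are therefore no independent check of the label. Defining markers at 0 in all 80 cells included Foxp3 of regulatory T cells, Ms4a1 of B cells, Rag2, Dntt and Ptcra of thymocytes, Il1rl1 and Il13 of type 2 lymphoid cells, and Il23r and Il17a.

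The cytotoxic cells made up 0.358% of kept barcodes in the Cept1 library (exact 95% Clopper-Pearson interval 0.256 to 0.487%) and 0.458% in the control library (0.328 to 0.623%). The intervals overlap, and the number of cells was 40 in both. Allowing Lef1 turned the shares to 0.922% and 1.59%, so the size of the difference depends on the cells with Lef1. The sort, its gate and dissociation enter these shares, and their part was not tested.

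In both libraries CD3-positive T cells outnumbered NK-like cells, and NK-like cells were the most frequent of the 4 named subsets. NK-like cells, defined by 0 UMIs of Cd3d, Cd3e and Cd3g and at least 2 NK genes, numbered 19 of 40 (47.5%, 31.5 to 63.9%) and 12 of 40 (30%, 16.6 to 46.5%). The NK genes of this gate were Ncr1, Klrb1c, Klre1, Klra4, Klra8, Tyrobp, Fcer1g and Eomes. CD3-positive cells, with at least 2 UMIs of the CD3 genes, numbered 21 and 24. Among them CD8 T-like cells were 7 (17.5%) and 10 (25%), CD4 T-like cells 4 (10%) and 8 (20%), and gamma-delta T-like cells, with Trdc and neither co-receptor, 5 (12.5%) and 1 (2.5%). The intervals of each subset overlap between libraries, so at 40 cells a library no difference in make-up was resolved. Without the 20 cells rich in other-lineage UMIs, NK-like cells were 16 of 28 and 11 of 32. CD3-positive cells were then 12 and 20, so in the Cept1 library NK-like cells outnumbered them. A cell with few CD3 UMIs can fall into a neighbouring class, and 5 and 9 cells stayed unnamed.

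**Figure D2:**
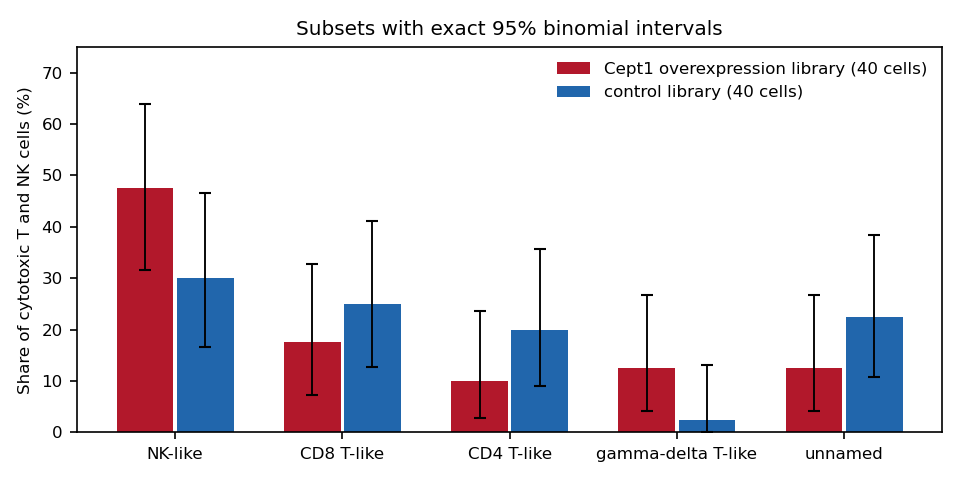
Share of the 40 cytotoxic T and NK cells of each library (y, %) in 5 gated subsets (x), with exact 95% binomial intervals as bars. NK-like cells were 47.5% with Cept1 overexpression and 30% without, and the intervals of all 5 subsets overlap.

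The subsets carried genes that the gates did not use. Prf1 (perforin) was at 486 and 566 CPM in NK-like cells and at 29.3 and 88.1 CPM in CD8 T-like cells of the Cept1 and control libraries. In NK-like cells the control level was 306 CPM with 1 control cell of 28 UMIs left out whole. The Cept1 level was 421 CPM with its own top cell left out whole. Trac, the constant region of the T cell receptor alpha chain, had UMIs in 7 of 7 and 9 of 10 CD8 T-like cells, in 3 of 4 and 8 of 8 CD4 T-like cells, and in 3 of 19 and 0 of 12 NK-like cells. The beta chain constant regions were not absent from NK-like cells. Trbc1 was at 333 and 131 CPM there, against 343 and 295 over all cytotoxic cells. Trbc2 was at 34.7 and 316 CPM in NK-like cells, against 250 and 572. Cxcr6, a receptor of tissue T cells, was at 251 and 397 CPM in CD4 T-like cells and at 0 and 43.5 CPM in NK-like cells. Perforin thus sat mainly in NK-like cells and Cxcr6 in T cells, in both libraries. Between CD3-zero and CD3-positive cells, 3.95% of the 5441 genes with at least 20 UMIs were higher in CD3-zero cells by 2-fold in both libraries and 5.83% lower. Of the NK receptor list, 14 of 26 measured genes were higher in both libraries and 0 lower. Only 24 of the 26 lie outside the rule markers, and Klra8 of the list is also in the NK-like gate. Its excess in CD3-zero cells is thus in part set by the choice of cells. For the T cell receptor list 10 of 23 were lower, a list that holds the CD3 genes of the gate.

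Against Lef1 T-like cells (CD3-positive with Lef1, 146 and 471 cells) of the same aortas, the cytotoxic cells held more effector transcripts. The Lef1 T-like gate did not leave out cytotoxic genes. A UMI of Nkg7 was present in 80 and 216 of these cells and a UMI of Gzma in 24 and 20. They are thus a mixture that takes in Lef1-bearing cells with granzyme A, not a purely naive population. Since Lef1 and 5 markers chose the cytotoxic cells, their higher effector level is a description. Gzma was at 3560 and 2399 CPM in cytotoxic cells against 689 and 82.1 CPM in Lef1 T-like cells. Il7r, the survival receptor of naive and memory T cells, was at 81.3 and 117 CPM against 673 and 649, and Tcf7, a naive T cell transcription factor, at 78.3 and 67.5 CPM against 377 and 356. In both libraries 8.82% of genes were higher in the cytotoxic cells by 2-fold and 1.53% lower. The shares were 10 of 14 granule genes, 22 of 26 NK receptor genes and 6 of 9 chemokine and cytokine genes higher, with 0 lower in each list. The Lef1 T-like cells themselves differed between the libraries: their granule, chemokine and NK receptor lists had median log2 ratios of 0.89, 0.96 and 0.99, against -0.21, 0.25 and 0.07 for the same lists in the cytotoxic cells. The mixture in the Lef1 T-like cells differed too, with a Gzma UMI in 16.4% and 4.25% of these cells. Its part in the list values was not tested.

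Between libraries, 486 of 5441 genes (8.93%) were higher in cytotoxic cells of the Cept1 library by 2-fold or more and 210 (3.86%) lower, and the median gene was at a log2 ratio of 0.06. Fewer of these held against counting error or 1 cell: 351 and 149 of them had an interval off 0, and 194 and 79 of the 486 and 210 were also past 2-fold without the gene's UMIs of its top cell. The top cell of a gene is the one with most of its UMIs in the library where it is higher, and unless a cell is said to be left out whole, its other UMIs stay in the total. CD3-positive cells alone had 391 of 3535 genes (11.1%) higher and 200 (5.66%) lower, and CD3-zero cells 246 of 2454 (10%) and 174 (7.09%). In the 60 cells with few other-lineage UMIs the excess of higher genes was gone, with 271 (6.82%) higher and 297 (7.47%) lower of 3976. The share of higher genes among those past 2-fold was 69.8% as first given, 58.9% (398 and 278 genes) with TMM scaling, and 47.7% in the 60 cells. Each list count past 2-fold below is to be read beside the 8.93% higher and 3.86% lower over all genes.

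NK receptors were led by Klra8 (Ly49H, an activating receptor of the Ly49 family; ENSMUSG00000089727, chromosome 6, 130115226 to 130129898, minus strand, GRCm38). It had 83 UMIs in 12 cells of the Cept1 library and 15 UMIs in 3 cells of the control library, all of them NK-like, that is 12 of 19 and 3 of 12 NK-like cells. No cell held more than 16 and 6 of these UMIs. The log2 ratio was 2.23 (1.43 to 3.13) over all cells, 2.58 in the 60 cells, and 1.92 without the cell with most UMIs. Klra8 was thus both in more NK-like cells and at a higher level over all of them, 576 against 163 CPM. Klra8 is itself a gene of the NK-like gate, so its place in NK-like cells is in part set by the gate. The NK-like counts are unthinned, at median depths of 6893 and 5669 UMIs. With each cell thinned to 1000 UMIs it was seen in 20% of cytotoxic cells (9.05 to 35.6%) and 5% (0.611 to 16.9%), unthinned in 30% and 7.5%, and in fibroblast-like cells in 0.041% and 0.028%. Ly49 genes are near-identical copies, and the labels do not say how reads that match several of them were counted.

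The other NK receptors lay on both sides. Of its 26 measured genes 14 were higher and 12 lower, 2 and 1 of them past 2-fold, with a median of 0.07 (0.50 in the 60 cells, and -0.02 with TMM scaling). Klrd1 (CD94, the partner chain of NKG2 receptors) had 135 UMIs in 34 cells and 83 UMIs in 19 cells, a log2 ratio of 0.46 (0.06 to 0.88). In cells thinned to 1000 UMIs Klrd1 was seen in 40% (24.9 to 56.7%) and 10% (2.79 to 23.7%), against 0% and 0.195% of fibroblast-like cells. Within NK-like cells its level was 548 and 620 CPM, and among CD8 T-like cells 5 of 7 and 3 of 10 had a UMI of it. Klra3, another Ly49 gene, had 15 and 6 UMIs and a ratio of 1.08 whose interval of -0.36 to 2.74 spans 0. Klrk1 (NKG2D, a receptor of stress ligands) had 113 and 166 UMIs and a ratio of -0.79, which was -0.16 without the deepest control cell's 59 UMIs. Klrb1b, an inhibitory receptor of the NKR-P1 family, had 31 and 71 UMIs and a ratio of -1.43 (-2.09 to -0.81), which ended within 2-fold at -0.78 without its top cell. Tyrobp and Fcer1g, signalling adaptors of these receptors, had 179 and 132 UMIs and 180 and 141 UMIs, with ratios of 0.20 and 0.11 whose intervals span 0.

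The killing genes as a list were close to even, with 5 of 14 higher, 9 lower and 0 past 2-fold (median -0.21, and -0.15 in the 60 cells). Gzma was higher in the Cept1 library, with 1182 UMIs in 29 cells and 675 in 19 cells, 3560 and 2399 CPM, a log2 ratio of 0.57 (0.43 to 0.71). One control NK-like cell held 267 of the 675 UMIs, and with that cell left out whole the ratio was 1.22, past 2-fold. Leaving out whole the top Gzma cell of the Cept1 library instead gave 0.46. NK-like cells had 4088 CPM against 5169 in the control library, and 4088 against 2654 with that cell left out whole, so the order of the libraries in NK-like cells rested on it. CD8 T-like cells had 1531 and 1513 CPM. Gamma-delta T-like cells held 265 UMIs in 4 of 5 cells against 38 in 1 cell, CD4 T-like cells 112 in 1 cell against 10 in 2, and unnamed cells 59 against 49, each in 2 cells. The value was 1.80 in CD3-positive cells and, with the control cell included, -0.26 in CD3-zero cells. After thinning Gzma was seen in 62.5% (45.8 to 77.3%) and 40% (24.9 to 56.7%) of cells, and in fibroblast-like cells in 0.0615% and 0.251%. In the cells with 3 or more rule markers the libraries lay closer, at 4405 and 3642 CPM of Gzma.

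The remaining effector molecules differed less or were lower. Perforin (Prf1) had 84 UMIs in 26 cells and 70 in 23 cells, a log2 ratio of 0.02 (-0.45 to 0.50) that was 0.69 with the same control cell, which held 28, left out whole. The Prf1 ratio was -0.17 with the top Prf1 cell of the Cept1 library left out whole instead. Fasl, the death ligand of T and NK cells, had 43 and 66 UMIs with a ratio of -0.86 (-1.45 to -0.28). Tnfsf10 (TRAIL), another death ligand, had 15 and 21 UMIs with a ratio of -0.72 (-1.78 to 0.30). Ctsw (cathepsin W) had 91 and 111 UMIs with a ratio of -0.53 (-0.94 to -0.11). The value of Prf1 thus depended on 1 cell, Fasl and Ctsw were lower in the Cept1 library by less than 2-fold, and the interval of Tnfsf10 spans 0. Lamp1, a granule membrane protein, had 55 and 30 UMIs, and its ratio of 0.64 was -0.50 in the 60 cells. Lyst, which controls the size of lytic granules, had 39 and 94 UMIs in 19 and 20 cells. Its ratio of -1.51 (-2.09 to -0.96) was -1.43 in the 60 cells, and ranged from -1.98 to -0.32 across the processing alternatives.

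Among cytokines Ifng (interferon gamma) was higher in the Cept1 library and Ltb (lymphotoxin beta) lower. Ifng had 92 UMIs in 19 cells and 37 UMIs in 17 cells, a log2 ratio of 1.08 (0.51 to 1.67). Cell numbers with Ifng were therefore alike, and the UMIs were concentrated: 48 lay in 2 CD4 T-like cells of the Cept1 library, 26 in 1 cell, and without the top cell the ratio was 0.60, within 2-fold. In CD8 T-like cells it had 29 UMIs in 4 of 7 cells and 2 UMIs in 2 of 10, and in NK-like cells 83.3 and 87.1 CPM. Ltb, which organises lymphoid tissue, had 19 UMIs in 10 cells and 57 UMIs in 20 cells, and the ratio of -1.82 (-2.66 to -1.05) was -1.32 in the 60 cells. Chemokines of the list were Ccl3, with 21 and 6 UMIs and a ratio of 1.57 (0.21 to 3.17), Ccl4, with 283 and 201 UMIs and 0.25 (-0.01 to 0.52), or 0.93 with 1 control CD4 T-like cell of 78 UMIs left out whole, and Xcl1, the attractant of cross-presenting dendritic cells, with 61 and 95 UMIs and -0.88 (-1.37 to -0.40). Ccl4 was at 0.13 with the top Ccl4 cell of the Cept1 library left out whole instead. Over the list of 9 measured genes 6 were higher and 3 lower, 3 and 1 past 2-fold, with a median of 0.25 and of 0.65 in the 60 cells. Csf1 had 19 and 2 UMIs, of which the 60 cells held 2 and 1.

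Tnfrsf9 (4-1BB, a co-stimulatory receptor shown after activation; ENSMUSG00000028965, chromosome 4, 150914562 to 150946102) had 82 UMIs in 14 cells and 14 UMIs in 6 cells, with highest cells of 14 and 4. Its log2 ratio was 2.31 (1.48 to 3.24), 2.58 in the 60 cells and 2.04 without its top cell. Tnfrsf9 UMIs of the Cept1 library lay in 9 of 19 NK-like, 2 of 7 CD8 T-like and 2 of 5 gamma-delta T-like cells, and those of the control library in 3 of 12 NK-like cells and 3 others. After thinning it was seen in 10% and 5% of cells, unthinned in 35% and 15%.

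Kdm6b, a histone H3 lysine 27 demethylase, had 102 UMIs in 27 cells and 25 UMIs in 13 cells. The ratio was 1.79 (1.15 to 2.48), 2.58 in the 60 cells, 2.14 in CD3-positive and 1.30 in CD3-zero cells, and thinned shares were 27.5% and 7.5%, against 6.42% and 9.13% in fibroblast-like cells. At 2000 UMIs the shares with Kdm6b were 27.5% and 22.5%. Nfkbia, the NF-kappaB inhibitor that NF-kappaB itself induces, had 106 UMIs in 23 cells and 33 UMIs in 13 cells, a ratio of 1.44 (0.87 to 2.05). For Nfkbia the difference was seen in CD3-positive cells (2.44) and not in CD3-zero cells (0.13), a contrast that was not tested, and the thinned shares of 25% and 10% sit around those of fibroblast-like cells (16% and 19.5%). Hes1, a Notch target, had 58 UMIs in 13 cells and 15 UMIs in 4 cells, of which 12 lay in 1 cell, with a ratio of 1.71. Kdm6b and Nfkbia were also higher in Lef1 T-like cells of the Cept1 library, at 0.78 and 0.82, whereas Tnfrsf9 and Hes1 were at 0.47 and -0.12 there.

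**Figure D3:**
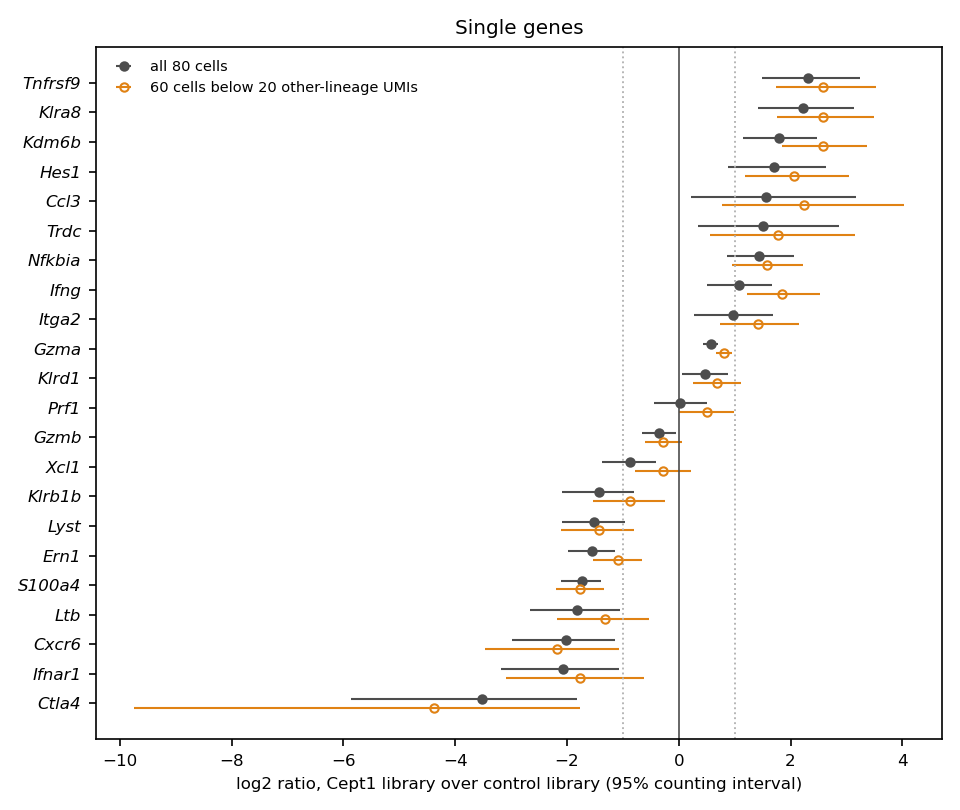
Log2 ratio of CPM, Cept1 library over control library (x), of 22 genes (y) with 95% counting intervals, for all 80 cells (filled) and the 60 cells below 20 other-lineage UMIs (open); dotted lines mark 2-fold. Tnfrsf9, Klra8 and Kdm6b lie at 2.31, 2.23 and 1.79, S100a4, Cxcr6 and Ctla4 at -1.74, -2.02 and -3.51, and Prf1 at 0.02.

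T cell genes were lower in the Cept1 library more often than higher. Of 23 measured genes of the T cell receptor complex and co-receptors 16 were lower and 7 higher, with 7 and 1 past 2-fold, a median of -0.60 and of -0.35 in the 60 cells. Over all measured genes 3.86% were lower and 8.93% higher by 2-fold. The list holds the CD3 genes, and its median within CD3-positive cells was -0.43. Cd3g had 91 and 163 UMIs in 21 and 26 cells, a log2 ratio of -1.08 (-1.47 to -0.70), which was -0.81 without its top cell. Within CD3-positive cells, 21 and 24 in number, the ratio was -1.0. Trbc2, a T cell receptor beta constant region, had 83 and 161 UMIs (-1.19, -1.59 to -0.80), while Trac had 65 and 69 UMIs (-0.33, -0.84 to 0.18). Cd8a had 18 and 37 UMIs and Cd4 4 and 20 UMIs. Cd28, the co-stimulatory receptor, had 22 and 55 UMIs, and its ratio of -1.56 was -0.87 without the 21 UMIs of 1 control cell. Trdc, the delta chain constant region, went the other way with 27 UMIs in 11 cells and 8 UMIs in 4 cells (1.52, 0.34 to 2.86), beside 5 and 1 gamma-delta T-like cells.

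Of the 15 checkpoint and co-stimulatory receptors 10 were measured, of which 9 had a ratio below 0, 4 of them past 2-fold, and 1, Tnfrsf9, was higher past 2-fold. The median was -0.63 (-0.18 in the 60 cells, where 2 of 9 were higher). Ctla4, the inhibitory receptor that competes with Cd28 (ENSMUSG00000026011, chromosome 1, 60887000 to 60915832), had 3 UMIs in 2 cells and 29 UMIs in 13 cells. In the control library 15 of the 29 UMIs lay in 1 cell, and the log2 ratio was -3.51 (-5.87 to -1.82) with that cell and -2.46 without its 15 UMIs. Icos, induced on activated T cells, had 17 and 41 UMIs (-1.51, -2.42 to -0.66), and Tnfrsf18 (GITR) 13 and 38 UMIs (-1.79, -2.82 to -0.85). Ctla4, Icos and Tnfrsf18 are also regulatory T cell genes, and Foxp3 had 0 UMIs in the cytotoxic cells. The regulatory T cell list (4 genes) was at 310 and 402 CPM. It includes Ctla4 itself, and Ikzf2 held 96 of its 103 and 75 of its 113 UMIs, so its sum is no separate measure. The part of regulatory T cells in these values was not tested. Cd200r1, an inhibitory receptor, had 5 and 15 UMIs (-1.82, -3.64 to -0.29). CD4 T-like cells held 0 and 17 of the Ctla4 UMIs, and they numbered 4 and 8. In Lef1 T-like cells Ctla4, Icos and Tnfrsf18 were at -0.83, -0.43 and -0.86.

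Genes of tissue residence and migration were lower in the Cept1 library in 12 of 20 cases and higher in 8, with 4 and 1 past 2-fold and a median of -0.22 that was 0.06 with every cell weighted equally. Cxcr6, the receptor for Cxcl16 (ENSMUSG00000048521, chromosome 9, 123806475 to 123811760), had 14 UMIs in 6 cells and 48 UMIs in 16 cells, a log2 ratio of -2.02 (-2.99 to -1.13). It was -1.75 without the top cell and -2.17 in the 60 cells. The share of cells with Cxcr6 was 15% and 40% unthinned and 5% and 5% at 1000 UMIs, a depth at which it rests on 2 cells each and shows no order. S1pr1, by which lymphocytes leave tissue, had 20 and 6 UMIs (1.50, 0.13 to 3.10) and 0.64 without its top cell. Itga2 (CD49b, an integrin of NK cells) had 60 UMIs in 19 cells and 26 UMIs in 9 cells, with a ratio of 0.97 (0.28 to 1.69) beside the larger number of NK-like cells.

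S100a4, a calcium-binding protein of effector and memory lymphocytes and of fibroblasts (ENSMUSG00000001020, chromosome 3, 90603771 to 90606045), was the lowest of the ranked genes. It had 91 UMIs in 18 cells and 257 UMIs in 27 cells, 274 and 913 CPM, with highest cells of 21 and 38. The log2 ratio was -1.74 (-2.10 to -1.39), -1.76 in the 60 cells, -1.54 in CD3-positive and -2.68 in CD3-zero cells. S100a4 was therefore lower in both CD3 classes and apart from the cells with other-lineage UMIs. Thinned shares were 20% (9.05 to 35.6%) and 45% (29.3 to 61.5%), whereas fibroblast-like cells were alike at 12.2% and 12.8%, and Lef1 T-like cells had the opposite sign at 1.58. Ern1 (the endoplasmic reticulum stress sensor IRE1) had 69 and 171 UMIs in 23 and 23 cells, 46 of them in 1 control cell, and a ratio of -1.55 (-1.97 to -1.14), or -1.10 without those 46 UMIs. Fgl2, a secreted fibrinogen-like protein, had 49 and 99 UMIs (-1.25, -1.78 to -0.75), and in the 60 cells 20 and 91 (-1.87). The adhesion receptor Cd2 had 36 and 69 UMIs (-1.18), the lymphocyte GTPase Gimap6 67 and 124 (-1.13) and the actin-binding Cotl1 69 and 127 (-1.12). Without their top cells these were at -1.0, -0.94 and -0.98. Zfand6, with 44 and 74 UMIs, and Mbd2, a reader of methylated DNA, with 49 and 82 UMIs, were at -0.99 and -0.98, and at -0.42 and -0.73 without their top cells.

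Antigen presentation on MHC class I, the ligands that NK receptors and CD8 T cells read, was lower in all 13 measured genes of the list. The median log2 ratio was -0.66, with 1 of 13 past 2-fold, and -0.60 in the 60 cells, where 1 of 13 was higher (Tap1, 0.24). H2-K1, a classical heavy chain, had 641 and 731 UMIs in 40 and 40 cells, 1930 and 2598 CPM, a ratio of -0.43 (-0.58 to -0.27). H2-D1 had 545 and 642 UMIs (-0.48, -0.64 to -0.31), and B2m, the shared light chain, 605 and 654 UMIs (-0.35, -0.51 to -0.19). These differences are below 2-fold but rest on UMIs from 38 to 40 cells of each library. Among subunits of the immunoproteasome, which cuts the peptides, Psmb8 had 83 and 124 UMIs (-0.82, -1.24 to -0.41) and Psmb10 29 and 43 (-0.81, -1.54 to -0.09). H2-T23 (Qa-1), the ligand of the Klrd1 receptors, had 52 and 82 UMIs (-0.90, -1.43 to -0.38), and the peptide transporter Tap2 18 and 27 (-0.82, -1.77 to 0.09). H2-T22, a non-classical molecule seen by gamma-delta T cells, had 21 and 39 UMIs (-1.13, -1.97 to -0.33), and Nlrc5, the transactivator of the class I genes, 40 and 57 UMIs (-0.75, -1.37 to -0.14). The list's median was -0.61 in CD3-positive and -0.57 in CD3-zero cells, but -0.04 in Lef1 T-like cells and 0.01 over all other kept barcodes. Class I genes are close relatives of each other, so reads shared between them may have been lost or split.

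**Figure D4:**
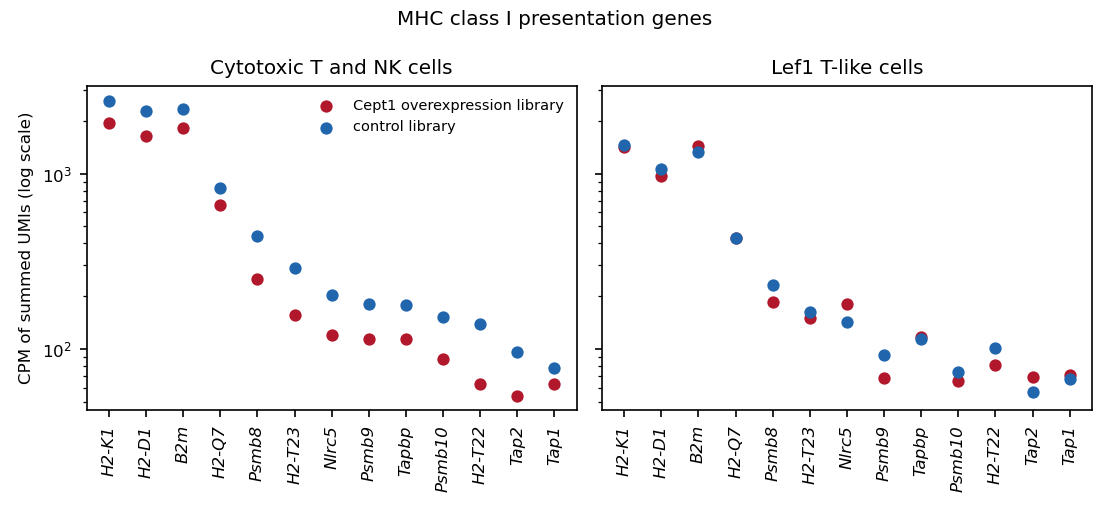
CPM of summed UMIs (y, log scale) of 13 MHC class I presentation genes (x) in each library, for cytotoxic T and NK cells (left) and Lef1 T-like cells (right). In the cytotoxic cells the control library is the higher one for all 13 genes, such as H2-K1 at 1930 and 2598 CPM, and in Lef1 T-like cells the list's median ratio was -0.04.

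Interferon-stimulated genes had few UMIs. Of 10 measured 7 were lower and 3 higher, with a median of -0.54 that was 0.00 in the 60 cells. Ifnar1, a chain of the type I interferon receptor, had 11 UMIs in 8 cells and 39 UMIs in 20 cells, a log2 ratio of -2.06 (-3.18 to -1.07) that was -1.77 in the 60 cells. Gbp2 and Ifi209 had 7 and 16 UMIs and 10 and 23 UMIs. Ly6a (Sca-1), also a gene of fibroblasts and endothelium, had 85 and 33 UMIs (1.13, 0.53 to 1.75), 33 of them in 1 cell, and 16 and 18 in the 60 cells. Cytokine receptors were lower in 10 of 15 cases (median -0.34). Il10ra, a chain of the interleukin 10 receptor, had 10 and 21 UMIs (-1.31, -2.56 to -0.16) and Il4ra, of the interleukin 4 receptor, 13 and 19 (-0.79, -1.93 to 0.31). Il2rb, the receptor chain for interleukins 2 and 15 on which NK cells depend, had 172 and 185 UMIs (-0.34, -0.65 to -0.04), and 0.02 in the 60 cells.

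Transcription factors of these lineages were even. Of 22 measured genes 10 were higher and 12 lower with 1 past 2-fold, and the median was -0.04. Eomes and Tbx21, which direct NK and effector T cell programmes, had 30 and 25 UMIs (0.02, -0.79 to 0.85) and 53 and 59 UMIs (-0.39, -0.96 to 0.17). Nfil3, needed for NK cell development, had 7 and 13 UMIs, and Hopx, a homeodomain protein of effector cells, 37 and 48, both with intervals that span 0. Satb1, a chromatin organiser of T cells, had 100 and 135 UMIs (-0.67, -1.06 to -0.29), and -0.12 in the 60 cells.

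Immediate early genes, which rise within minutes of stimulation or tissue digestion, were higher in 19 of 27 cases, 6 of them past 2-fold and 0 lower by 2-fold, with a median of 0.43 beside 0.06 for all genes, and in the 60 cells 18 of 24 were higher with a median of 0.47. In other kept barcodes the list was at 0.09 and in Lef1 T-like cells at 0.49. The list split by CD3 class, at 0.79 in CD3-positive and -0.14 in CD3-zero cells. Egr1 had 109 and 27 UMIs (1.77, 1.16 to 2.44), but 16 and 13 of them in the 60 cells (0.62). Fos had 164 and 172 UMIs, of which the deepest control cell held 101, and in the 60 cells 18 and 137. Atf3 had 21 and 4 UMIs, of which the 60 cells held 3 and 1, and the heat shock gene Hspa1a 28 and 5 UMIs, 20 of them in 1 cell. The part of digestion in these values was not tested.

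Cell cycle genes rested on 1 cell. Over 13 measured genes the median was -0.18, and with the deepest control cell left out whole 0.79. Mki67 had 16 and 48 UMIs and Top2a 20 and 56, with log2 ratios of -1.82 and -1.72 that turned to 0.65 and 0.064 with that cell left out whole. Mcm3, a replication factor, had 18 and 7 UMIs (1.12, -0.20 to 2.63).

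Phospholipid synthesis genes, the pathway of the altered enzyme, were higher in 10 of 12 measured cases (2 past 2-fold, 0 lower by 2-fold) with a median of 0.38, against 0.06 over all genes and 0.12 for the list in Lef1 T-like cells. It was 0.77 in the 60 cells, 0.41 in CD3-positive and -0.44 in CD3-zero cells, with 5 measured genes in each of these classes. Counts were small, and the intervals of the 12 genes reached a median of 1.16 to either side. Pcyt1a, which makes CDP-choline, the substrate of Cept1, had 22 UMIs in 8 cells and 6 UMIs in 6 cells, a log2 ratio of 1.64 (0.29 to 3.23) that was 0.98 without its top cell. Ptdss1, a phosphatidylserine synthase, had 23 UMIs in 13 cells and 8 UMIs in 5 cells (1.28, 0.07 to 2.66). Chka, choline kinase, had 31 and 19 UMIs (0.47, -0.40 to 1.37), and Dgat1, which makes triglyceride, 57 and 83 UMIs (-0.78, -1.29 to -0.28).

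**Figure D5:**
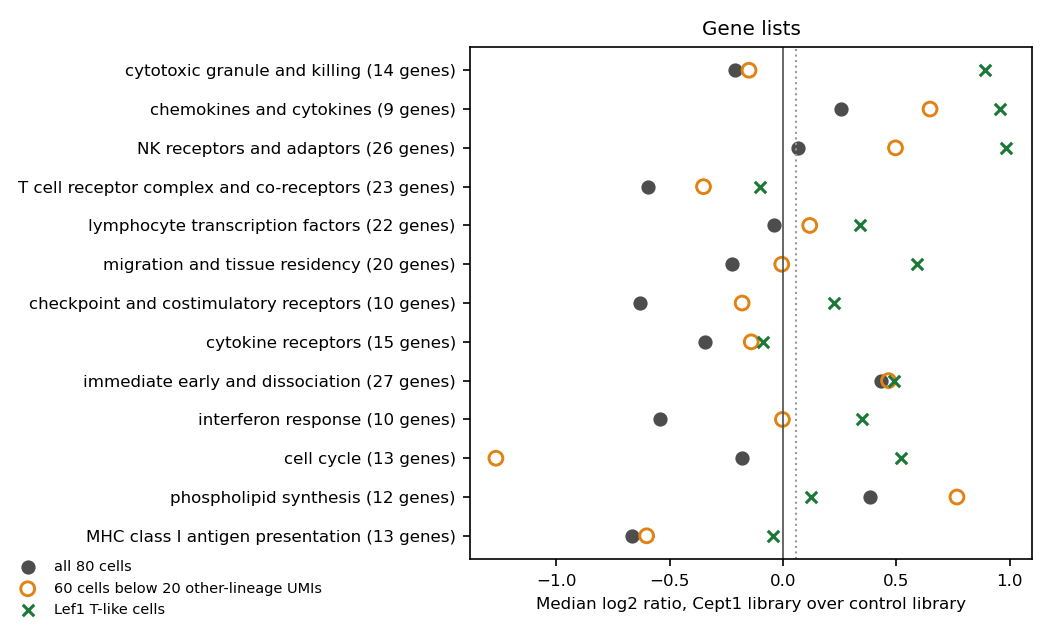
Median log2 ratio, Cept1 library over control library (x), of 13 gene lists (y) in all 80 cytotoxic cells (filled circles), in the 60 cells below 20 other-lineage UMIs (open circles) and in Lef1 T-like cells (crosses); the dotted line marks the median of all genes, 0.06. The MHC class I list lies at -0.66, -0.60 and -0.04, and the granule list at -0.21, -0.15 and 0.89.

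Most of the highest ratios among genes with at least 100 UMIs belonged to other lineages and to single cells. Fabp4 had 425 and 12 UMIs, 348 of the former in 1 cell. Igfbp5 had 257 and 12 UMIs, with 208 in 1 cell, and Pi16, an adventitial fibroblast gene, 197 and 19, with 153 in 1 cell. In the 60 cells Igfbp5 had 2 and 3 UMIs and Pi16 0 and 10. C7, Rbms3, Eln, Sfrp2, Fbln5 and Ogn, genes of fibroblasts and elastic matrix, had log2 ratios of 1.45 to 2.39 over all cells. In the 60 cells C7 had 0 and 1 UMIs, Sfrp2 4 and 6, and Ogn 2 and 4. Klf4 had 110 and 34 UMIs over all cells and 28 and 28 in the 60. Of the 12 highest genes, Kdm6b, Nfkbia and Fabp4 were higher by 2-fold with at least 20 UMIs in the 60 cells, and without its top cell's UMIs Fabp4 was at 2.44.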

How the data were processed

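The authors deposited raw UMI counts for each gene in each barcode, without normalization, which per the file headers come from Cell Ranger 7.2.0. Seurat and the mm10 build are also named in the submitters' processing notes. Annotation, treatment of intronic, antisense and multi-mapping reads, and filters before deposit: not given in the sources used here. Of 32285 gene identifiers 32158 (99.6%) were found in GENCODE vM21, which gave the GRCm38 coordinates, and 38 symbols were duplicated.

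Counts were summed over the chosen cells of a library and scaled to CPM (Python 3.11.15, numpy 2.4.6, scipy 1.17.1, pandas 2.3.3). Log2 ratios are Cept1 over control. Their 95% intervals come from the exact Clopper-Pearson interval for the fraction of a gene's UMIs that fell in each library, and shares have exact 95% binomial intervals, all covering counting error alone. A single library per group allowed no test, and cells were not used as replicates. Past 2-fold means an absolute log2 ratio of at least 1 among genes with at least 20 UMIs, which are the measured genes, and a count of 0 has an upper limit of 3 counts. To compare shares of cells with a UMI, cells were thinned to 1000 UMIs. Doublets were scored with Scrublet (scanpy 1.11.5) and kept in the main values. The computation was checked on simulated data.

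The members, the gene lists and the gates were chosen with earlier results of these data known. Named genes were the rule markers and Ptprc, Cept1 and Gt(ROSA)26Sor, the 12 highest and 12 lowest ratios among genes with at least 100 UMIs, the 3 largest absolute ratios in each list, and the gene with most UMIs in each list of other cells. The ranked sets left out mitochondrial, ribosomal, haemoglobin, receptor segment and unnamed genes, the rule markers, and genes below 0.5 times their level in other barcodes. Genes outside this rule (among them Gzma, Prf1, Ctsw, Klrd1, Klrk1, Tyrobp, Fcer1g, Ifng, Ccl4, Xcl1, Itga2, Icos, Tnfrsf18, Trac, Trbc2, Cd8a, Il2rb, Il7r, Tcf7, Eomes, Tbx21, Fos, Chka and most MHC class I genes) were named after their values were seen. Some named genes are not reported here. Alternatives were other cell filters, marker rules, scalings, gates and UMI minimums.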

Additional observations from a re-analysis of the deposited data

Results flagged for a closer look

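In 4 named genes the log2 ratio between the libraries was past counting error in opposite directions in CD3-positive and CD3-zero cytotoxic cells. The difference between the classes was not tested. Col1a2, a fibroblast collagen, was at 0.76 in CD3-positive and -0.45 in CD3-zero cells. Acta2, the smooth muscle actin, was at 1.32 and -2.19. Hbb-bs, an adult haemoglobin chain, was at -4.83 and 1.84. These 3 are genes of other lineages, and in the 60 cells with few other-lineage UMIs they had 15 and 27, 15 and 17, and 16 and 14 UMIs, of 625 and 410, 270 and 138, and 167 and 252 over all cells. Ikzf2 (Helios), a transcription factor of regulatory, gamma-delta and innate-like T cells, was at 0.81 and -3.10, from 91 and 46 UMIs in CD3-positive and 5 and 29 UMIs in CD3-zero cells, with 33 and 32 of them in the highest cell of each library.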

How the results depend on the processing

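No paired analysis was possible because each group is 1 library. The share of members differed by -0.67 points (0.922 and 1.59%) with Lef1 allowed. Genes past 2-fold, higher and lower, were 46 and 72 without cells with any UMI of the 9 other-lineage genes, 43 and 32 after thinning to 1000 UMIs, 1638 and 1136 with no minimum of UMIs, and 122 and 40 with at least 50 UMIs. Higher genes alone were 918 with Lef1 allowed, 316 without Scrublet scores of 0.25 or more, 271 without cells of 20 or more other-lineage UMIs, and 246 in CD3-zero cells. The share with a UMI differed by 22.5 points at 2000 UMIs and 20 unthinned for Tnfrsf9, and by -22.5 and -25.0 for Cxcr6.

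List medians moved with Lef1 allowed (granule 0.28, cell cycle 0.94), without cells with any other-lineage UMI (granule -0.93, chemokines -0.81, transcription factors 0.67, cytokine receptors 0.58, immediate early -0.37), after thinning (interferon -1.42), in CD3-zero cells (immediate early -0.14, interferon 0.79, cell cycle -2.08), in CD3-positive cells (cell cycle 1.48), without 20 or more other-lineage UMIs (cell cycle -1.27) and without the deepest control cell (cell cycle 0.79). The other 244 list values moved by less than the median half-width of the single-gene intervals in their list. That width is not the counting error of a median, and it can hold a change of sign. The phospholipid list, with a half-width of 1.16, went from 0.38 to -0.44 in CD3-zero cells. All 44 of the subset shares moved by less than their counting error.

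Of the named genes, 983 values kept within counting error, 203 moved and 16 reversed. Some ratios kept their sign but came near 0 under an alternative. The ranges were -2.05 to -0.14 for Ern1, -1.94 to -0.12 for Fgl2, -1.98 to -0.32 for Lyst and -3.65 to -0.49 for S100a4. Those of Kdm6b and Klra8 were 0.71 to 2.58 and 0.75 to 2.58, and that of Tnfrsf9 was 1.76 to 4.21. Reversed were Eln (-2.95) and Fbln5 (-1.14) without 20 or more other-lineage UMIs, Fbln5 (-0.12) with cells weighted equally, Eln (-0.34), Fbln5 (-0.39) and Cd2 (0.17) in CD3-zero cells, Ly6a (-0.13), Mki67 (1.50) and Top2a (0.68) in CD3-positive cells, Mki67 (0.65) and Top2a (0.064) without the deepest control cell, and Klrb1b (0.52), S1pr1 (-0.70), Il10ra (0.26), Mki67 (1.20) and Top2a (1.15) with Lef1 allowed. Another 171 values with under 20 UMIs under an alternative, 19 of them of opposite sign to a value past 2-fold, were left out, a choice made after they were seen. Leaving out cells of 20 or more other-lineage UMIs, the deepest cell of each library, and the cell with most UMIs of Gzma, Prf1 or Ccl4 was chosen after the data were seen. The cause of each change was not tested. With 40 cells a library, depth limits genes under 20 UMIs and subsets under 10 cells.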
